A study of Mus musculus with 36 samples.

Results

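The miR-15/16 family, to which miR-195 and miR-497 belong, was examined in small RNA-seq data of B3, a mouse pre-B cell line. Its members were taken by name, as every entry of the deposited table called miR-15a, miR-15b, miR-16, miR-195 or miR-497 with any hairpin number and arm, and 9 of the 469 miRNAs in the table met this rule. They were mmu-miR-16-5p, mmu-miR-15b-5p, mmu-miR-15a-5p, mmu-miR-195a-5p and mmu-miR-497-5p, which are the 5p arms, and mmu-miR-15b-3p, mmu-miR-15a-3p, mmu-miR-16-2-3p and mmu-miR-16-1-3p, which are the 3p arms; the prefix for mouse is left out from here on. The rule reads names and no levels, but the members were chosen with earlier results of these data known.

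The study followed B3 cells at 0, 2, 6, 12, 18 and 24 h, in 36 samples with 3 per line and time. The Ikaros line carried a retroviral (MSCV) construct with haemagglutinin-tagged Ikaros fused to the hormone-binding domain ERt2 of the estrogen receptor, followed by an IRES and GFP, and the control line carried the same vector with ERt2 but no Ikaros. Both lines were sorted for GFP and both received 4-hydroxy-tamoxifen (4-OHT, 0.5 uM), which brings the fusion protein into the nucleus. The labels give this dose for the samples of 0 h too, whereas the methods describe 0 h as cells without 4-OHT, so the comparison at 0 h is here that of the lines at the start. Replicates are numbered 1, 2 and 4. They came from culture batches 4, 5 and 6 at 0 h and from culture batches 1, 2 and 3 at all later times, and samples of both lines with the same number and time shared a batch. A change from 0 h within a line cannot be told apart from the culture batches, and sequencing ran in a pair of batches as well. In the drawing of the design, the second of these held control libraries from 2 h to 18 h and the first all others, apart from some libraries run in both, so that at these times line and sequencing batch can be told apart only through the correction the authors made. The same limit holds for control samples of 2 h to 18 h compared with those of 0 h or 24 h. A change of the line difference from 2 h to 24 h, or over all 6 times, is limited in the same way. Each line is a single transduced population, and the lines have not been compared in other cells here.

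A mature miRNA of about the length of the family members is cut from a hairpin, loaded into an Argonaute protein and pairs with messenger RNAs mainly through its seed, bases 2 to 8 from the 5′ end. The arm that is kept more often is called the guide and the other the passenger, and in this family the guide is the 5p arm. The family is known in lymphocytes because the locus of miR-15a and miR-16-1, inside the non-coding gene Dleu2, is lost in many chronic lymphocytic leukaemias. Its known targets include the mRNAs of Bcl2, which protects cells from apoptosis, and of cyclins that drive the passage from G1 to S phase. Ikaros is a zinc finger transcription factor needed for lymphocyte development, and its entry into the nucleus takes B3 cells towards a later, non-dividing pre-B stage. No target mRNA was measured in the table used here.

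A RefSeq mature sequence (build GRCm38.p6) was found for 392 of the 469 names and for all 9 members. The table's miR-497-5p is the older name of miR-497a-5p, the 5p arm of Mir497. The 5 sequences that define the family are shown first, 5′ to 3′, with the seed in capitals.
miR-16-5p: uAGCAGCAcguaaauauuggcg
miR-195a-5p: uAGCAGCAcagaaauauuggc
miR-15a-5p: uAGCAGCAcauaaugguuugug
miR-15b-5p: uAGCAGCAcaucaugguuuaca
miR-497-5p: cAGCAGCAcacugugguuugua
All 5 share the seed AGCAGCA, and they part in the bases after it. Counted without gaps from the 5′ end, miR-16-5p and miR-195a-5p were identical at 19 of 21 bases and miR-15a-5p and miR-15b-5p at 18 of 22. miR-15a-5p and miR-497-5p matched at 17 of 22 bases, and miR-16-5p and miR-497-5p at 11 of 22.

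The opposite arms are shown in the same way, because the sequences of miR-16-1-3p and miR-16-2-3p name their hairpin, whereas that of miR-16-5p does not.
miR-15a-3p: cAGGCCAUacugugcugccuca
miR-16-1-3p: cCAGUAUUgacugugcugcuga
miR-15b-3p: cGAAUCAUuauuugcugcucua
miR-16-2-3p: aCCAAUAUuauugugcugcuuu
None of these 4 carries the seed of the family, and no pair of them shares a seed. The 3p sequences of miR-16-1 and miR-16-2 differ, whereas the 5p arm of both hairpins is the same molecule, so a level of miR-16-5p sums over 2 genes.

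The members come from 6 hairpins in 3 clusters (GRCm38 with the GENCODE vM21 annotation). Mir15b (chr3:69009772-69009835, plus strand) and Mir16-2 (chr3:69009902-69009996, plus strand) lie 66 bases apart in an intron of Smc4, which encodes a condensin subunit. Mir16-1 (chr14:61631880-61631972, minus strand) lies in an exon and Mir15a (chr14:61632027-61632110, minus strand) in an intron of Dleu2, with 54 bases between them. Mir497 (chr11:70234717-70234800, plus strand) and Mir195a (chr11:70235042-70235135, plus strand) are 241 bases apart, and no other annotated gene overlaps them. Further sequences of the same seed exist: 10 RefSeq mature names carry it, 6 of them were in the table, and the only one of these 6 outside the family was miR-322-5p.

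Values are normalised levels on the log2 scale, and the table gives no read counts, so the depth of each library is unknown from it and the precision rests on the 3 replicates. Sample medians ranged from 3.70 to 4.15. The root mean square distance of a sample from the mean of the other samples of its group had a median of 0.45 and was highest in Ikaros 12 h replicate 4 (0.86) and control 12 h replicate 2 (0.77); results at 12 h are therefore given with and without these libraries. The lymphoid identity of the cells was checked on 6 blood miRNAs, all in the table, which together made up 23.1% to 37.7% of the linear total in control samples and 15.3% to 31.4% in Ikaros samples, led by miR-181a-5p at rank 2. miR-150-5p, a miRNA of mature lymphocytes, was low (3.07 to 4.62). Of 12 miRNAs of other cell types 5 were in the table, with 0.627% to 0.874% of the total in control and 0.520% to 0.788% in Ikaros samples, nearly all of it miR-9-5p at rank 17, a miRNA best known from neurons. The part of these shares in the results below was not tested.

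The family spanned a wide range of levels, with miR-16-5p at the top. Its level averaged 16.55 over the 36 samples (range 16.11 to 17.00), and it ranked 3 or 4 among all miRNAs in every sample. miR-15b-5p followed at 12.89 (12.31 to 13.34, rank 21) and miR-15a-5p at 11.60 (10.91 to 12.12, rank 36). These 3 guide arms did not overlap in level, and miR-15b-5p was above miR-15a-5p in all 36 samples. The guide arms of the cluster on chromosome 11 were at the other end, miR-497-5p at 3.13 (1.71 to 4.21, rank 271) and miR-195a-5p at 2.72 (1.83 to 3.79, rank 294). The order of this pair is not clear of the spread, since miR-497-5p was the higher of them in 13 of 18 control and 16 of 18 Ikaros samples and their ranges overlap widely. Sequences of 21 or 22 bases need no length scaling, but how evenly ligation and reverse transcription captured them was not tested.

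**Figure D1:**
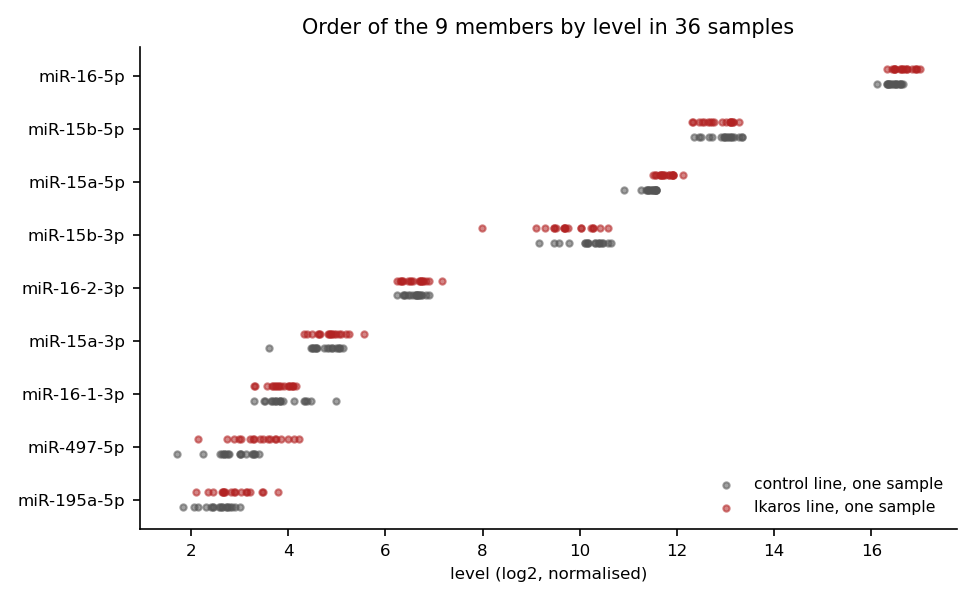
Level of each member (horizontal axis, log2 normalised) in all 36 samples, with a point per sample, control samples in grey and Ikaros samples in red. miR-16-5p lies between 16.11 and 17.00 in every sample, and miR-195a-5p and miR-497-5p overlap between 1.71 and 4.21.

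Among the passenger arms, miR-15b-3p was the most abundant at 9.94 (7.99 to 10.63, rank 68), and its level was above that of the guide arms miR-497-5p and miR-195a-5p in every sample. miR-16-2-3p averaged 6.60 (6.24 to 7.16), miR-15a-3p 4.78 (3.60 to 5.56) and miR-16-1-3p 3.88 (3.29 to 4.97), and the last 2 overlapped. The 5p arm exceeded the 3p arm of the same hairpin in all 36 samples, by far more for miR-15a than for miR-15b, whose median log2 difference was 2.82 in control and 2.96 in Ikaros samples. The passenger of Mir16-2 exceeded the passenger of Mir16-1 in all 36 samples too, with a median difference of 2.71 in the control line and 2.74 in the Ikaros line. The guide arm of the Smc4 hairpin was likewise above that of the Dleu2 hairpin, miR-15b-5p exceeding miR-15a-5p by a median of 1.56 in control and 1.12 in Ikaros samples. How the 2 hairpins of miR-16-5p divide its level cannot be read from these arms, because the share of each 3p arm that is kept is unknown.

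miR-16-5p also decided the summed level of the family. On the linear scale, the 5 members with the seed made up between 5.07% and 10.05% of all miRNA signal in a sample (median 7.75%), and miR-16-5p was 86.0% to 91.6% of that sum. At 0 h the family share was 6.80% ± 0.52 (SD, n = 3) in the control line and 6.83% ± 0.17 in the Ikaros line. At 18 h it was 7.70%, 7.90% and 8.68% in control replicates 1, 2 and 4 and 9.67%, 8.20% and 9.75% in Ikaros replicates 1, 2 and 4. At 24 h the means were 7.71% ± 0.62 and 8.17% ± 0.29. The lines overlapped at every time, and no test was made of these shares.

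**Figure D2:**
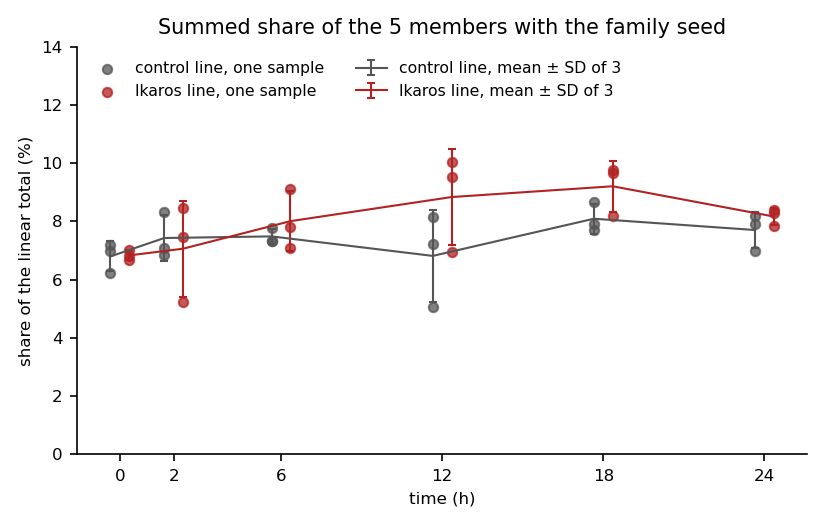
Summed linear level of the 5 members with the family seed as a percentage of all miRNAs (vertical axis) against time in hours, with a point per sample and the mean ± SD of 3 samples per line. The shares run from 5.07% to 10.05%, and the points of the Ikaros line (red) and the control line (grey) overlap at every time.

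The main question of the design is how the lines differ at each time, and each line difference (Ikaros minus control) was tested with limma over all 469 miRNAs with Benjamini-Hochberg adjustment. At 0 h, 0 of the 9 members passed an adjusted p of 0.05, against 8.53% of all miRNAs. At 2 h it was again 0 (11.3% of all miRNAs) and at 6 h 0 (15.1%). At 12 h 4 members passed (21.7% of all miRNAs), of which miR-15a-5p, miR-16-5p and miR-497-5p were higher and miR-16-1-3p lower in the Ikaros line. At 18 h only miR-15a-5p passed (1 of 9, against 29.9%). At 24 h 3 members passed, all higher in the Ikaros line: miR-195a-5p, miR-497-5p and miR-15a-5p. The table held 39.9% called miRNAs at 24 h, so 3 of 9 is about the share found among all miRNAs. The median line difference of the 9 members at 24 h was 0.28, beside -0.07 over the whole table.

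**Figure D3:**
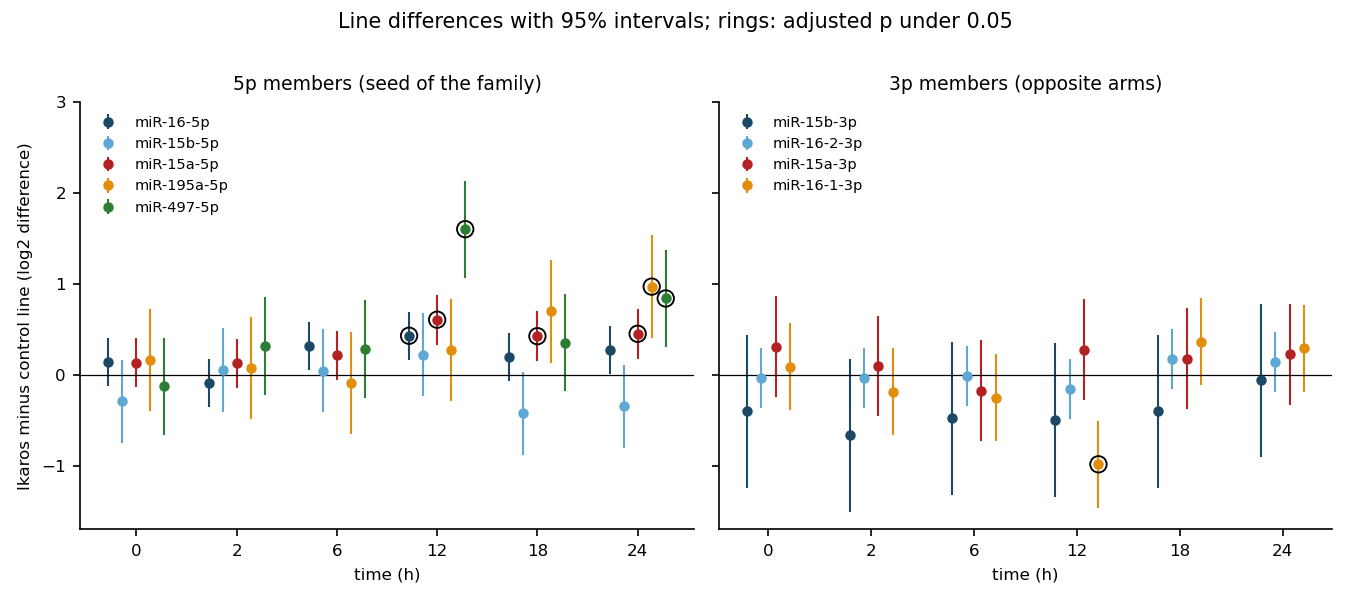
Line difference (Ikaros minus control, log2, vertical axis) of each member at each time, with 95% intervals from limma; the 5p members are on the left and the 3p members on the right, and a ring marks an adjusted p under 0.05. Rings appear only from 12 h on, and the only ring below 0 is that of miR-16-1-3p at 12 h (-0.99).

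miR-15a-5p, the guide arm of the Dleu2 cluster, was called at 3 of the 6 times, always higher in the Ikaros line. At 24 h the control samples held 11.36, 11.40 and 11.54 and the Ikaros samples 11.84, 11.89 and 11.92 (replicates 1, 2 and 4), a difference of 0.45 (SE 0.13, adjusted p = 0.0082, limma). All Ikaros samples were above all control samples at 24 h, and the same held at 0, 6, 12 and 18 h. Here and below, a lack of overlap between groups of 3 samples is a description and not a test. How often it occurs among all 469 miRNAs is not given here. At 0 h the levels were 11.51, 11.38 and 11.48 in control and 11.55, 11.56 and 11.65 in Ikaros samples, a gap of 0.14 (95% interval -0.14 to 0.41) that did not pass. At 12 h the difference was 0.61 (SE 0.13, adjusted p = 0.0013, limma) and at 18 h 0.43 (SE 0.13, adjusted p = 0.016). Control 12 h replicate 2 held the lowest level of all 36 samples (10.91, beside 11.43 and 11.40), and without it the difference at 12 h was 0.44 (adjusted p = 0.020); without it and Ikaros 12 h replicate 4 it was 0.40 (adjusted p = 0.052). The call at 24 h was lost without replicate 1 of all groups (0.43, adjusted p = 0.092) or replicate 2 of all groups (0.43, adjusted p = 0.073). With only the groups compared in the fit, the adjusted p was 0.25 at 12 h and 0.066 at 18 h. The call at 18 h was also lost without control replicate 1 (0.32, adjusted p = 0.10) and without Ikaros replicate 4 (0.31, adjusted p = 0.11). The growth of the difference from 0 h to 24 h was 0.32 (95% interval -0.07 to 0.71, adjusted p = 0.29), so the part of the gap that was there at the start and the part that came later were not separated by this test.

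The passenger miR-15a-3p came from the same hairpin but did not pass in any comparison. Its levels at 24 h were 4.50, 4.58 and 4.53 in control and 4.62, 4.84 and 4.82 in Ikaros samples, a difference of 0.22 (95% interval -0.33 to 0.78, adjusted p = 0.55). The lines did not overlap at 24 h, and they did not at 0 h either. The control samples of 0 h held 4.85, 4.56 and 4.90 and the Ikaros samples 5.09, 5.18 and 4.98. That difference was 0.31 (95% interval -0.24 to 0.87, adjusted p = 0.70, limma), and its growth from 0 h to 24 h was -0.09 (-0.87 to 0.70). Control 12 h replicate 2 was far below the other samples of its group for this arm as well (3.60, beside 5.03 and 4.50).

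miR-16-1-3p, the passenger arm of the other Dleu2 hairpin, passed the test between the lines at 12 h and no other time, with the sign opposite to that of miR-15a-5p. It stood at 4.33, 4.97 and 4.48 in the control and at 3.85, 3.29 and 3.69 in the Ikaros samples of 12 h, a difference of -0.99 (SE 0.24, adjusted p = 0.0025, limma). The groups did not overlap, and the control value of replicate 2 was the highest of the 36 samples. Without that library the difference was -0.80 (adjusted p = 0.028), and without both libraries that stood apart it was -0.84 (adjusted p = 0.035). The call was lost without replicate 2 of all groups (-0.64, adjusted p = 0.19) and with only the groups compared in the fit (adjusted p = 0.15). At 18 h the order was the reverse, with 3.84, 3.64 and 3.75 in control and 4.15, 4.08 and 4.09 in Ikaros samples (difference 0.37, 95% interval -0.11 to 0.85, adjusted p = 0.25). The control line thus carried a high value at 12 h between lower ones at 6 h (mean 4.03) and 18 h (mean 3.74), while the Ikaros means ran from 3.61 to 4.11 over all times.

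**Figure D4:**
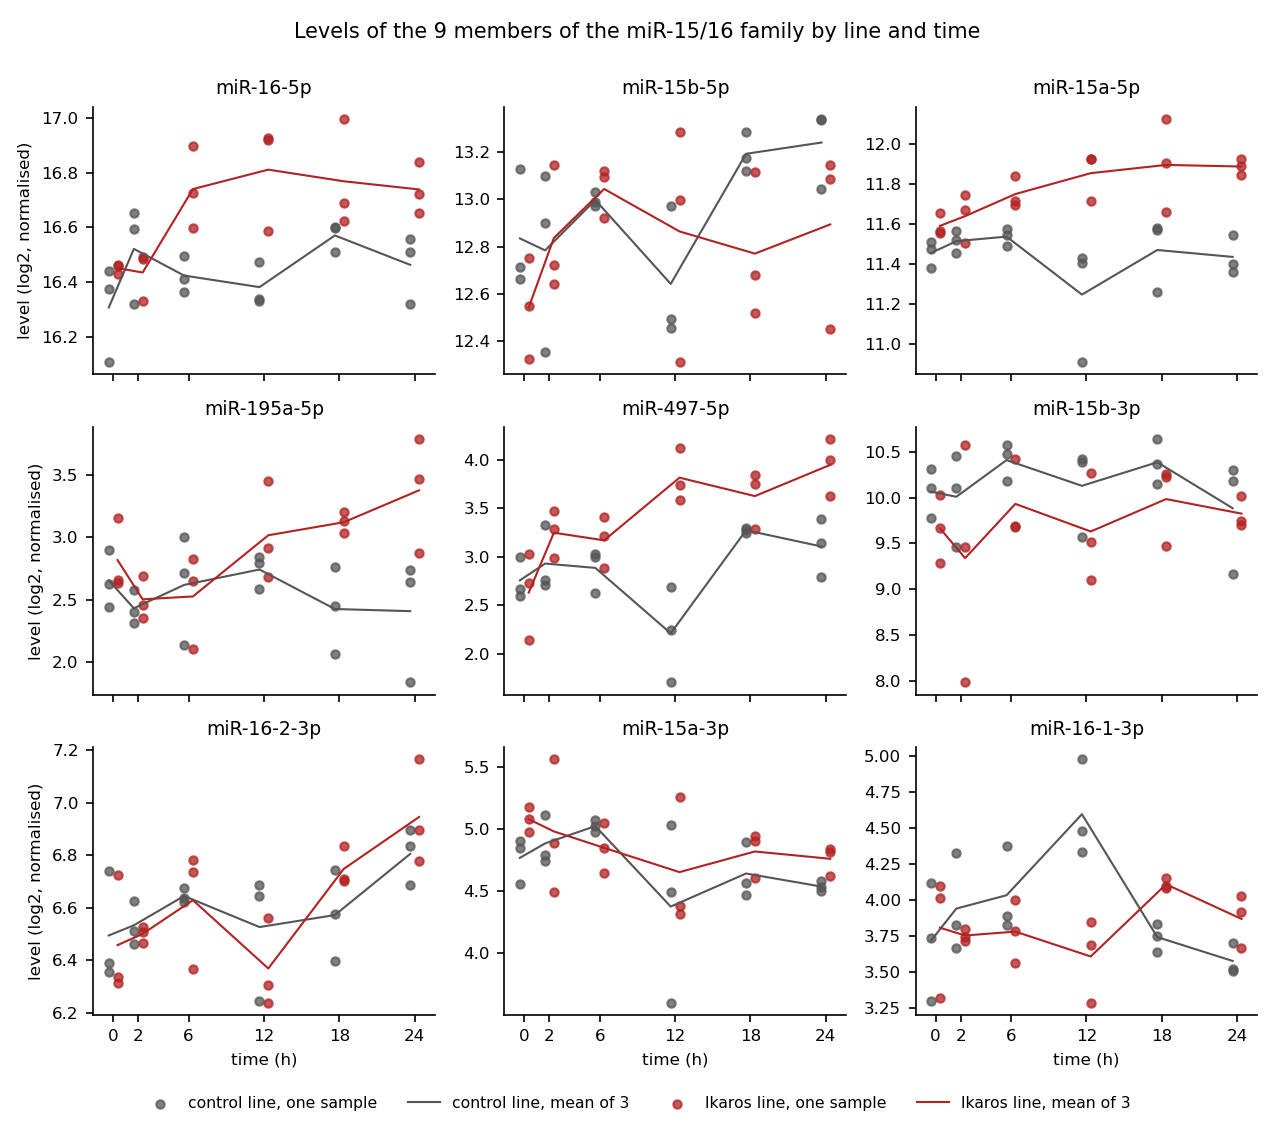
Level of each of the 9 members (vertical axis, log2 normalised, a scale of its own in each panel) against time in hours, with a point per sample and lines through the means of 3; grey is the control line and red the Ikaros line. miR-15a-5p of the Ikaros line lies above the control line at 24 h without overlap (11.84 to 11.92 against 11.36 to 11.54), and miR-497-5p of the control line dips at 12 h (1.71 to 2.69).

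miR-16-5p, the guide shared by Mir16-1 and Mir16-2, was higher in the Ikaros line at 12 h. The control samples held 16.47, 16.34 and 16.33 and the Ikaros samples 16.59, 16.93 and 16.92, a difference of 0.43 (SE 0.13, adjusted p = 0.016, limma). From 6 h to 24 h all Ikaros samples lay above all control samples of the same time, but the differences at 6 h (0.32, 95% interval 0.05 to 0.58, adjusted p = 0.11), 18 h (0.20, -0.07 to 0.46, adjusted p = 0.26) and 24 h (0.28, 0.01 to 0.54, adjusted p = 0.090) did not pass. The call at 12 h was lost without control replicate 4 (adjusted p = 0.051), Ikaros replicate 2 (0.078) or Ikaros replicate 4 (0.066). Without both libraries of 12 h that stood apart the difference was 0.35 (adjusted p = 0.13, limma). It was also 0.35 without replicate 2 of all groups (adjusted p = 0.28) or replicate 4 of all groups (adjusted p = 0.16). With only the groups compared in the fit, the adjusted p was 0.38. This arm also depended on the scaling. When sample medians were subtracted the difference at 24 h was 0.51 (adjusted p = 0.0072), whereas quantile normalization turned it to -0.46 (adjusted p = 0.091) and that at 12 h to -0.23 (adjusted p = 0.50), and it called the arm lower in the Ikaros line at 6 h (-0.69, adjusted p = 0.028) and at 18 h (-0.69, adjusted p = 0.017). Quantile normalization sets a level by its rank alone, and the rank of miR-16-5p was lower in the Ikaros line although its level was not: it held rank 3 in 14 of 18 control samples and in 1 of 18 Ikaros samples, and rank 4 in the others. The miRNA that passed it was miR-10a-5p, which lay below miR-16-5p in 14 control samples and in 1 Ikaros sample and reached 19.30 in the Ikaros line.

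The arms that come from the Smc4 cluster alone are miR-15b-5p, miR-15b-3p and miR-16-2-3p, and none gave a line difference that passed at any time. The cluster also adds to miR-16-5p through Mir16-2, and that arm passed at 12 h. The means of miR-15b-5p, the guide arm of Mir15b, ran from 12.64 to 13.24 over the 6 control groups. Over the 6 Ikaros groups they ran from 12.54 to 13.04. The line differences were -0.29, 0.05, 0.05 and 0.22 at 0, 2, 6 and 12 h. Of the passenger miR-15b-3p, the means ran from 9.88 to 10.41 in the control groups and from 9.34 to 9.98 in the Ikaros groups. At each of the 6 times the Ikaros mean of this passenger was the lower, by 0.06 to 0.67, and the groups overlapped each time. miR-15b-5p held 13.34, 13.05 and 13.34 in the control and 13.14, 13.09 and 12.45 in the Ikaros samples of 24 h, a difference of -0.35 (95% interval -0.80 to 0.11, adjusted p = 0.22). Without Ikaros replicate 4 it was -0.12 (adjusted p = 0.70), without replicate 4 of all groups -0.075 and without replicate 2 of all groups -0.54 (adjusted p = 0.22). The groups overlapped at 24 h. At 18 h they did not, with 13.12, 13.28 and 13.17 against 12.52, 12.68 and 13.11, though the difference of -0.42 (-0.88 to 0.04, adjusted p = 0.16) did not pass either. miR-15b-3p varied most within groups, with an average group SD of 0.47 beside 0.12 for miR-15a-5p. Ikaros 2 h replicate 4 had the lowest value of the 36 samples for this arm (7.99, beside 10.57 and 9.46), and its difference at 24 h was -0.06 (-0.90 to 0.79, adjusted p = 0.92), a sign that turned when sample medians were subtracted (0.18) or under quantile normalization (0.08). At 2 h this arm differed by -0.67 (adjusted p = 0.34), and by -1.28 (adjusted p = 0.035) without Ikaros 2 h replicate 1.

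miR-16-2-3p, the passenger arm of the second Smc4 hairpin, passed no test between the lines but rose with time in the Ikaros line. It held 6.46, 6.53 and 6.51 at 2 h and 7.16, 6.89 and 6.78 at 24 h, a rise of 0.45 (SE 0.16, adjusted p = 0.039, limma), and the samples of the times did not overlap. In the control line the values were 6.63, 6.51 and 6.46 at 2 h and 6.69, 6.83 and 6.90 at 24 h, a difference of 0.27 (95% interval -0.06 to 0.60, adjusted p = 0.66). The line difference at 24 h was 0.14 (-0.19 to 0.47, adjusted p = 0.53) and its growth since 2 h 0.17 (-0.30 to 0.64, adjusted p = 0.63), so a rise in the Ikaros line beyond that of the control line was not shown.

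The cluster of lowest level held the largest single line difference among the members, that of miR-497-5p at 12 h. It stood at 2.24, 1.71 and 2.69 in the control and at 3.59, 3.74 and 4.12 in the Ikaros samples of 12 h, a difference of 1.60 (SE 0.26, adjusted p = 2.5e-05, limma). The groups were far apart, in part because the control values were low at this time, with a mean of 2.21 between 2.89 at 6 h and 3.27 at 18 h. Leaving out single libraries of 12 h gave differences of 1.35 to 1.84 that all passed, and without both libraries that stood apart it was 1.20 (adjusted p = 0.0053). At 24 h the control samples held 3.14, 2.79 and 3.39 and the Ikaros samples 3.63, 4.00 and 4.21, a difference of 0.84 (SE 0.26, adjusted p = 0.012, limma) with no overlap. This call was lost without control replicate 2 (0.68, adjusted p = 0.074) and without Ikaros replicate 4 (0.71, adjusted p = 0.060). It was also lost without replicate 2 of all groups (0.65, adjusted p = 0.16). At 18 h the lines overlapped, with control values of 3.30, 3.25 and 3.27 and Ikaros values of 3.28, 3.85 and 3.75.

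miR-195a-5p, its neighbour, parted later. At 24 h it stood at 1.83, 2.74 and 2.65 in control and at 3.79, 3.47 and 2.88 in Ikaros samples, a difference of 0.97 (SE 0.28, adjusted p = 0.0059, limma). The groups did not overlap, but replicate 1 was both the lowest control and the highest Ikaros sample: without control replicate 1 the difference was 0.69 (adjusted p = 0.067), and without replicate 1 of all groups 0.48 (adjusted p = 0.29). At 18 h the values were 2.06, 2.45 and 2.77 in control and 3.03, 3.20 and 3.13 in Ikaros samples, and the difference of 0.70 (SE 0.28, adjusted p = 0.055) fell just short of the threshold, although the groups did not overlap. At 12 h the lines overlapped (difference 0.28, 95% interval -0.29 to 0.84), so the neighbours did not share the difference that miR-497-5p had at that time.

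A change of the line difference over the 6 times was tested with a moderated F-test in limma, which 13.0% of all miRNAs passed. Of the 9 members 2 did, miR-497-5p (adjusted p = 0.015) and miR-16-1-3p (adjusted p = 0.035), both of which had their extreme difference at 12 h. Neither passed without control 12 h replicate 2 (adjusted p = 0.053 and 0.11) or without replicate 2 of all groups (0.53 and 0.69). Without replicate 1 of all groups the adjusted p was 0.19 and 0.15. In 39 fits without a library or replicate number, miR-497-5p kept the call in 36 and miR-16-1-3p in 27. Without both libraries of 12 h that stood apart, 0 members passed (adjusted p = 0.11 and 0.12), while the calls over the whole table went from 61 to 73. For the growth of the line difference from 2 h to 24 h, 0 members passed (14.3% of all miRNAs did). The largest growth from 0 h to 24 h was that of miR-497-5p, 0.97 (95% interval 0.21 to 1.72, adjusted p = 0.088), which passed without Ikaros 0 h replicate 4 (1.16, adjusted p = 0.045). Next came miR-195a-5p at 0.81 (0.01 to 1.61, adjusted p = 0.18).

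Within the Ikaros line from 2 h to 24 h, 28.6% of the 469 miRNAs changed, 46 of them higher and 88 lower. Of the 9 members 3 rose. They were miR-195a-5p (0.88, SE 0.28, adjusted p = 0.018), miR-16-2-3p and miR-497-5p (0.70, SE 0.26, adjusted p = 0.044, limma). miR-195a-5p went from 2.69, 2.35 and 2.46 at 2 h to the values of 24 h given above, all of them higher. All 3 calls depended on single libraries: that of miR-195a-5p was lost without 2 h replicate 2 (adjusted p = 0.065), 24 h replicate 1 (0.11) or 24 h replicate 2 (0.057). That of miR-497-5p was lost without replicate 2 or 4 of either time (0.080 to 0.16), and that of miR-16-2-3p without any library of 2 h or without replicate 1 or 2 of 24 h (0.065 to 0.19). miR-16-5p rose by 0.30 in the fit (95% interval 0.04 to 0.57, adjusted p = 0.076) and did not pass.

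From 0 h to 24 h, 2 of 9 members rose in the Ikaros line, against 30.7% of all miRNAs that changed. miR-497-5p held 2.73, 2.14 and 3.03 at 0 h and so rose by 1.32 (SE 0.26, adjusted p = 0.00039, limma), a call that each of the 9 fits without a library or replicate number kept. miR-16-2-3p rose by 0.49 (SE 0.16, adjusted p = 0.022), a call lost without 0 h replicate 1 (adjusted p = 0.089), 0 h replicate 4 (0.10) or 24 h replicate 1 (0.13). These samples came from different culture batches. In the control line 0 of 9 members changed from 2 h to 24 h or from 0 h to 24 h in limma, and 0 did at an unadjusted p under 0.05. The table as a whole gave 0% for both, with 33 and 16 miRNAs at an unadjusted p under 0.05. The control interval for miR-497-5p from 0 h to 24 h was -0.19 to 0.88.

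The levels also depended on which scale they were read. Subtracting the median of each sample moved the median line difference of all miRNAs at 24 h from -0.07 to 0.17, a shift of 0.23. Relative to that median, differences are the same on both scales: at 24 h they were 1.04 for miR-195a-5p, 0.91 for miR-497-5p, 0.52 for miR-15a-5p, 0.34 for miR-16-5p and -0.28 for miR-15b-5p. With medians subtracted, 5 members passed within the Ikaros line from 2 h to 24 h, with miR-15a-5p (0.44) and miR-16-5p (0.50) beside the 3 named above, and 120 of the 469 miRNAs passed. Under this scaling the direction of the guide arms was the same as in the deposited values at 24 h, with miR-15b-5p lower (-0.11) and the other guide arms higher in the Ikaros line.

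The arms of a hairpin can be compared within a sample, where a scaling factor of that sample drops out. The corrections for GC content and for sequencing batch need not drop out, since they can differ between miRNAs. The arms of miR-15a have a GC content of 40.9% (5p) and 59.1% (3p). In the pairs of 2 h to 18 h, line and sequencing batch are told apart only through the authors' correction. The part of these corrections in the arm differences was not tested. The difference between 5p and 3p of miR-15a was 6.74 on average in the control and 6.99 in the Ikaros samples of 2 h to 24 h. It was larger in the Ikaros sample in 14 of 15 same-numbered pairs, by 0.24 on average, with an exact two-sided permutation p of 0.014 (adjusted p = 0.028 over 2 hairpins). The exception was replicate 1 of 2 h. The pairs are not independent, since those of one number come from the same culture batch at all 5 times, and the permutation treats them as separate. By culture batch the mean differences were 0.15, 0.20 and 0.38 for batches 1, 2 and 3, and with 3 batches an exact two-sided test could not give a p below 0.25. The test over pairs missed the threshold when single pairs were left out, namely 2 h replicate 4 (exact adjusted p = 0.054), 6 h replicate 1 (0.054), 6 h replicate 4 (0.052) or 12 h replicate 4 (0.055), and without replicate 4 throughout the difference was 0.18 (exact adjusted p = 0.26). For miR-15b the arms differed by 2.81 in control and 3.14 in Ikaros samples. That difference was larger in the Ikaros sample in 10 of 15 pairs, by 0.33 on average (SD of the pairs 0.89), with an exact permutation p of 0.18, and its means by culture batch were 0.17, 0.10 and 0.73. Without replicate 4 of 24 h it was 0.46 (exact adjusted p = 0.034).

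**Figure D5:**
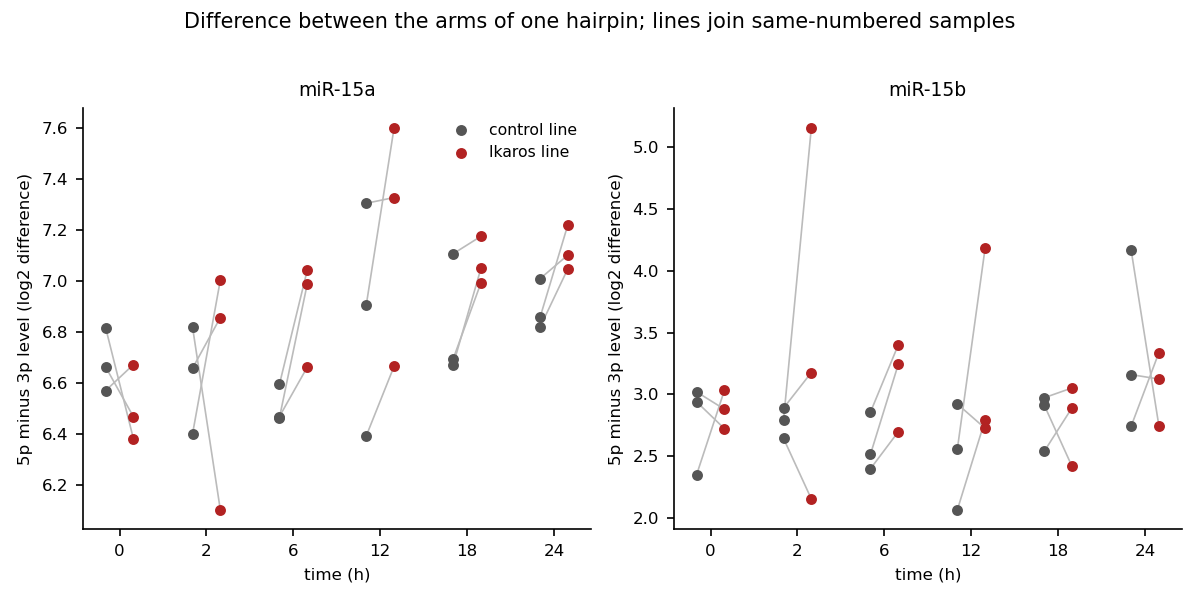
Level of the 5p arm minus that of the 3p arm (vertical axis, log2 difference) of miR-15a (left) and miR-15b (right) against time in hours, with a point per sample; lines join the control (grey) and Ikaros (red) samples of the same number. From 2 h on, the Ikaros point is the higher in 14 of 15 pairs for miR-15a and in 10 of 15 for miR-15b.

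The members did not vary as a block. Over the 12 group means, the Pearson correlation was 0.85 between miR-15a-5p and miR-16-5p and 0.86 between miR-15a-5p and miR-497-5p, which lie on different chromosomes. It was -0.03 between miR-15a-5p and miR-15b-5p. Hairpins of a cluster gave 0.53 for miR-497-5p and miR-195a-5p, 0.40 for miR-15b-5p and miR-16-2-3p and -0.32 for miR-15a-5p and miR-16-1-3p. The arms of a hairpin gave 0.36 for miR-15a and 0.34 for miR-15b. These group means share their libraries, batches and normalization, and the values are descriptions.

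Outside the family, the miRNAs most like miR-16-5p over the 12 group means were miR-29b-2-5p (Pearson r = 0.85), miR-29c-3p (0.83), miR-140-5p (0.83), miR-103-3p (0.82) and miR-500-5p (0.82). For miR-15b-3p, the most abundant passenger, they were miR-7081-3p (0.76), miR-200a-5p (0.75), miR-200a-3p (0.75), miR-132-3p (0.74) and miR-32-5p (0.74).

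Close relatives by seed come from a cluster on the X chromosome, miR-322-5p with the full seed and miR-503-5p with a seed that differs in its last base, and their sequences are given for comparison.
miR-322-5p: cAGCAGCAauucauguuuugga
miR-503-5p: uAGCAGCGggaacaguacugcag
miR-322-5p was less abundant than miR-15a-5p (mean 9.07) and varied more (average group SD 0.48). At 24 h it held 9.37, 8.95 and 8.97 in control and 10.45, 10.18 and 9.46 in Ikaros samples, and the difference of 0.93 (95% interval 0.11 to 1.75, adjusted p = 0.063) did not pass, though the groups did not overlap. Within the Ikaros line it rose from 0 h to 24 h by 1.28 (SE 0.40, adjusted p = 0.016, limma), across different culture batches, and from 2 h to 24 h, within the same batches, the difference was 0.96 (0.14 to 1.79, adjusted p = 0.069) and did not pass. miR-503-5p averaged 2.94, and its line difference at 24 h was 0.55 (-0.14 to 1.24, adjusted p = 0.20).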

How the data were processed

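Small RNA libraries (TruSeq) of 36 B3 samples were sequenced by the authors. Per their methods, reads were aligned to miRBase mouse miRNAs with Novoalign, counted with multiBamCov, filtered at a CPM of 1 with NOISeq, corrected for GC content with cqn, normalised with TMM and corrected for sequencing batch with ComBat, and technical replicates were averaged. The submitters' processing notes name mm10. The deposited values are log2 levels, so no count model was used. How reads matching several mature sequences were counted is not given in the sources used here, which bears on the near-identical miR-16-5p and miR-195a-5p and on miR-15a-5p and miR-15b-5p.

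Members, lists and tests were chosen with earlier results of these data known. All members were named, with seed relatives (bases 2 to 7 shared) and the 5 miRNAs whose group means correlated best with the most abundant 5p and 3p member. Group means of 12 groups were fitted over the whole table with limma 3.58.1 (R 4.3.3; lmFit, eBayes with a mean-variance trend), p-values were adjusted per contrast by Benjamini-Hochberg, and 0.05 was the threshold. The fit was tested on simulated data. Samples of both lines with the same number and time shared a culture batch in the labels, and their deviations from the group means correlated by 0.26 (0.06 to 0.41 by time). Arms were compared by an exact permutation test over 15 pairs. Alternatives were other scalings, a pseudocount of 1, a filter on low levels, no trend, only the groups compared, a replicate block and leaving out replicates; single libraries and the pair of libraries at 12 h were added after seeing the data. Sequences came from RefSeq tables, hairpin positions from GENCODE vM21. Python 3.11.15, numpy 2.4.6, scipy 1.17.1, pandas 2.3.3 and matplotlib 3.10.9 were used.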

Additional observations from a re-analysis of the deposited data

Results flagged for a closer look

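The difference between the lines varied with time for 2 members by the moderated F-test of limma over the 6 times: miR-497-5p (adjusted p = 0.0152) and miR-16-1-3p (adjusted p = 0.0347). Both had their extreme line difference at 12 h, of 1.60 and -0.99, and both lost the call without control 12 h replicate 2 (adjusted p = 0.0529 and 0.110), which held the lowest miR-497-5p and the highest miR-16-1-3p level of the 36 samples. The part of this library in the result beyond that was not tested. The calls were lost in other fits too. In 39 fits without a library or replicate number, miR-497-5p kept the call in 36 and miR-16-1-3p in 27. Without replicate 2 of all groups the adjusted p of the F-test was 0.53 and 0.69.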

How the results depend on the processing

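With culture batch as a replicate block, all 117 member calls (9 members in 13 comparisons) were the same as without it, and 3 members passed at 24 h. Counts of members called moved as follows. With sample medians subtracted they were 2 at 6 h, 2 at 18 h, 1 for the growth since 2 h, 5 within the Ikaros line from 2 h and 5 from 0 h, with 66, 142, 56, 120 and 145 of the 469 miRNAs called. Under quantile normalization they were 1 at 6 h (miR-16-5p, -0.69; 65 of 469), 3 at 18 h (miR-16-5p among them, -0.69; 134 of 469) and 1 for the growth since 0 h (miR-497-5p, 1.12; 0 as deposited, where 58 of 469 miRNAs passed), and miR-16-5p turned to -0.23 at 12 h and -0.46 at 24 h. With only the groups compared in the fit, they were 1 at 12 h, 0 at 18 h, and 0 and 1 within the Ikaros line from 2 h and from 0 h. The whole table then fell from 102 to 18 calls at 12 h and from 53 to 16 at 2 h. It fell from 134 to 71 within the Ikaros line from 2 h and from 67 to 37 for the growth since 2 h. At 18 h the whole table rose from 140 to 159 calls, and within the Ikaros line from 0 h it went from 144 to 136. Without the miRNAs of lowest level (25%), and without the mean-variance trend, 2 members passed at 18 h (miR-195a-5p, adjusted p = 0.044 and 0.047). Without the pair of libraries that stood apart at 12 h, 2 passed at 12 h (80 of 469) and 0 in the interaction (73 of 469).

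Leaving out replicate numbers or single libraries gave 0 to 1 calls at 2 h, 1 to 4 at 12 h, 0 to 2 at 18 h, 1 to 3 at 24 h, 0 to 1 for the growth since 0 h, 0 to 3 and 1 to 3 within the Ikaros line from 2 h and 0 h, and 0 to 2 in the interaction. Whole-table counts fell too. Without replicate 2 they went from 53 to 18 at 2 h, from 102 to 34 at 12 h and from 140 to 69 at 18 h. At 24 h they went from 187 to 110, for the growth since 0 h from 58 to 23 and in the interaction from 61 to 11. Within the Ikaros line they went from 134 to 54 from 2 h and from 144 to 56 from 0 h. Whole-table counts with single libraries left out are not given here. The arm difference ranged from 0.18 to 0.31 for miR-15a and from 0.13 to 0.46 for miR-15b. At 24 h, miR-15b-3p ranged from -0.42 to 0.19 (0.18 with medians subtracted, 0.076 under quantile normalization), miR-16-2-3p from -0.029 to 0.27 and miR-15b-5p from -0.54 to -0.075. The cause of these moves was not tested. Depth is unknown from the table, which limits most the members of lowest level, miR-195a-5p and miR-497-5p.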
